A study of Homo sapiens with 9 samples.

Results

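The major histocompatibility region of chromosome 6 was followed in Hi-C maps of growing and RAS-induced senescent (RIS) fibroblasts. The region was taken by position as the 40 kb bins of hg19 between 29.68 and 33.4 Mb, and it was divided into class I from 29.68 Mb, class III from 31.48 Mb and class II from 32.36 Mb. This gave 93 of the 75918 bins of chromosomes 1 to 22 and X, with 45 in class I, 22 in class III and 26 in class II. All 5 libraries came from IMR90, a line of human lung fibroblasts, that carried ER:HRAS(G12V), an oncogenic HRAS fused to the oestrogen receptor and switched on by 4-hydroxytamoxifen (4OHT). The 2 RIS libraries came from cells given 100 nM 4OHT for 6 days, and the 3 growing libraries from cells without it. An MSCV Vector is listed for growing replicate 3 alone. Replicates are separate libraries of one cell line, so p-values measure the spread between these libraries. Since 4OHT was given to the RIS cells alone, the drug and the oncogene cannot be told apart.

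The major histocompatibility region is among the most gene-dense and most variable stretches of the human genome. Class I holds HLA genes whose products show peptides from inside the cell to cytotoxic T cells, class II holds HLA genes whose products show peptides taken up from outside, together with the TAP and proteasome genes that supply class I molecules, and class III holds complement, TNF family and heat shock genes. Fibroblasts express class I genes at all times, while class II genes are normally off in them until interferon gamma switches on their transactivator CIITA. Hi-C counts ligated pairs of DNA fragments that lay near each other in the nucleus. Borders between domains often carry CTCF, a zinc finger protein that stops the loop-extruding ring cohesin, and 2 CTCF sites that hold a loop usually point at each other.

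Sequences are shown for some of the borders and for 1 of the focal contacts described below, because CTCF reads an oriented motif. The letters CCNNNAGGNGGCNC, a form of the core of that motif, were searched on both strands of the GRCh37 reference sequence, the same build as hg19. A match lay within 1 bin of 9 of the 14 borders of the region, against 29.1% of 4163 edges between bins of chromosome 6. Bins of the whole region held matches more often than those of the chromosome, as given below. The share among the region's own edges was not computed. The comparison therefore does not show that borders differ from other edges of the region. Matches are given 5′ to 3′ on their own strand with the fixed letters in capitals, and they are a description of the sequence, not evidence of binding.

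Border at 32.8 Mb, chr6:32806612-32806625, plus strand, between genes: CCgggAGGgGGCgC
Border at 32.8 Mb, chr6:32821897-32821910, minus strand, intron of PSMB9: CCgccAGGaGGCgC
Border at 32.8 Mb, chr6:32836147-32836160, minus strand, between genes: CCactAGGtGGCgC
Border at 32.56 Mb, chr6:32583273-32583286, minus strand, between genes: CCtcaAGGaGGCcC
Border at 32.56 Mb, chr6:32590403-32590416, plus strand, between genes: CCagcAGGgGGCtC
Border at 30.4 Mb, chr6:30385055-30385068, minus strand, intron of MICC: CCtggAGGaGGCgC
Border at 31.16 Mb, chr6:31182392-31182405, plus strand, between genes: CCctcAGGgGGCtC
Border at 31.44 Mb, chr6:31466326-31466339, minus strand, intron of MICB: CCgggAGGcGGCgC
Border at 31.44 Mb, chr6:31475776-31475789, minus strand, intron of MICB: CCtggAGGaGGCaC
Border at 31.44 Mb, chr6:31475782-31475795, plus strand, intron of MICB: CCtccAGGaGGCaC
Focal contact, left anchor, chr6:30627795-30627808, plus strand, intron of DHX16: CCctgAGGgGGCaC
Focal contact, right anchor, chr6:31053495-31053508, minus strand, between genes: CCaggAGGaGGCcC

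The last 2 matches lie at the ends of 1 focal contact and point towards each other. The focal contact between chr6:29800001-29840000 and chr6:29960001-30000000 also held a match at each end. Those matches both lay on the plus strand and point the same way. The border at 32.8 Mb lies inside TAP2 and beside PSMB8, PSMB9 and TAP1. Matches of both orientations lay there and at the borders at 31.44, 32.04 and 32.56 Mb. Of all 40 kb bins of the region, 38.7% held a match, against 16.3% on chromosome 6. The region also had a median GC content of 45.4%, against 38.9% on the chromosome.

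The region was thinly covered. The authors' matrices sum to the same total in every library, so depth was read from whole contacts recovered with 1 factor per bin. Growing replicates 1, 2 and 3 held 154318992, 175410468 and 180775315 of them, against 109967509 and 150689993 for RIS. Of the 93 bins, 89 had values in all libraries. The missing 4 hold HLA-B, C4A with C4B, C4B with TNXB, and the stretch between HLA-DRA and HLA-DRB5, so no value per 40 kb bin is given for HLA-B. Contacts per bin, relative to the median bin of the genome, had a median of 0.459 in growing and 0.506 in RIS libraries, with class III lowest at 0.328 and 0.358. Chromosome 6 as a whole was at 1.12 and 1.11. Bins of the region held a median of 8 HindIII sites, which the protocol cuts, against 12 on the chromosome. Balancing brings every bin to the same sum, so values of thinly covered bins carry more counting error. Growing replicate 3 and RIS replicate 2 come from libraries with many duplicate read pairs before filtering, and differences within that pair and within the other libraries are given where they matter.

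Contacts inside class II were more frequent in RIS cells, and contacts of class I with class III were less frequent. Each block was measured as the log2 of its mean observed over expected contact, where the expected value is the mean at the same distance over all chromosomes of that library. In replicate order, class II stood at -0.05, -0.02 and 0.01 in growing libraries, against 0.20 and 0.18 in RIS libraries. Both RIS libraries lay above all growing libraries, and the means differed by 0.21, or 1.16-fold (-0.02 ± 0.03, SD, n = 3, against 0.19 ± 0.01, SD, n = 2). Class I stood at -0.36, -0.35 and -0.39 in growing and -0.29 and -0.29 in RIS libraries, a difference of 0.08 without overlap. Class III stood at 0.04, 0.12 and -0.09 in growing and 0.02 and -0.10 in RIS libraries, and these groups overlapped. Without balancing, the class III difference of -0.07 became 0.23.

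Class I with class III was depleted in every library, at -1.12, -1.08 and -1.02 in growing cells. It was lower still in RIS cells, at -1.35 and -1.57, a difference of -0.39, or 0.765-fold. Class I with class II, which lie on either side of class III, stood at -0.29, -0.16 and -0.26 in growing and -0.36 and -0.61 in RIS libraries, a difference of -0.25. The last value was -0.12 without RIS replicate 2 and -0.37 without RIS replicate 1. Class III with class II stood at -0.01, -0.01 and -0.15 in growing and 0.15 and -0.07 in RIS libraries, with overlap. The 3 growing and 2 RIS libraries allow 10 assignments, so the smallest two-sided exact permutation p is 0.1. That p was reached by class I, class II, class I with class III and class I with class II, and it became 0.15 after Benjamini-Hochberg adjustment over the 6 blocks. Without balancing, the differences were 0.20 for class I, 0.24 for class II, -0.17 for class I with class III and -0.09 for class I with class II.

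Lack of overlap was common elsewhere in the genome. Windows of the same size and spacing were higher in both RIS libraries without overlap in 41.7% of cases for class I and 40.1% for class II. They were lower without overlap in 35.6% of cases for class I with class III and 39.3% for class I with class II. Separation of the groups alone is therefore not particular to the region. Median differences over those windows lay between -0.03 and 0.02 for the 6 blocks. The expected value is a mean over the same genome, so medians near 0 follow largely from the measure. The spread of the window differences was not tabulated, so the size of the block differences is not ranked against them. Within the few-duplicate libraries the difference was 0.24 for class II, -0.25 for class I with class III and -0.13 for class I with class II, and within the many-duplicate pair it was 0.18, -0.55 and -0.35.

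**Figure D1:**
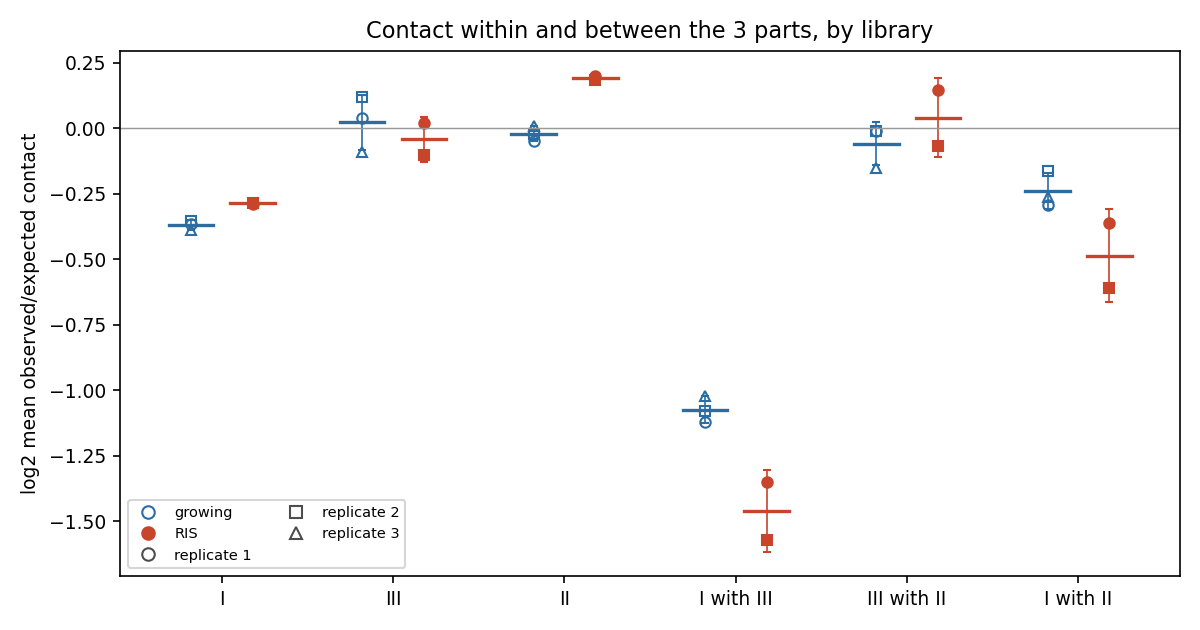
Log2 mean observed over expected contact (y axis) of the 6 blocks (x axis) in each library, growing replicates open blue and RIS replicates filled red, with the group mean as a line and the SD as a bar. Class II is higher in both RIS libraries than in any growing library, and class I with class III is lower.

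The difference inside class II was larger at longer distances. From 40 to 200 kb the class II difference was 0.07, from 240 to 480 kb 0.30, and from 520 kb on 0.38. In the last class growing libraries stood at -0.82, -0.72 and -0.65 and RIS libraries at -0.32 and -0.38, so the groups were far apart. They rest on 357, 443 and 428 contacts in growing and 382 and 475 in RIS libraries. Class I over the same 3 steps differed by 0.08, 0.06 and 0.10, with no such rise. Class III went from 0.08 at 40 to 200 kb to -0.23 at 240 to 480 kb and -0.26 beyond, where groups overlapped in the nearest and the farthest step. Pairs at least 2040 kb apart, which join class I to class III and class II, had a difference of -0.39. Growing libraries stood there at -0.18, 0.01 and -0.10, and RIS libraries at -0.34 and -0.62.

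Tested against each other, class I minus class II differed between groups by -0.13 without overlap (two-sided exact permutation p = 0.1), and class III minus class II by -0.28 (two-sided exact permutation p = 0.2). Class I minus class III gave 0.15 with overlap (two-sided exact permutation p = 0.3). The whole region differed by -0.06 with overlap. The stretch of equal length before it, with histone, zinc finger and olfactory receptor genes, rose from 0.24 ± 0.01 (SD, n = 3) to 0.53 ± 0.02 (SD, n = 2). The region minus that stretch differed by -0.35, and the region minus the stretch after it by 0.09, each without overlap (two-sided exact permutation p = 0.1). Without balancing the first of these turned to 0.067.

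**Figure D2:**
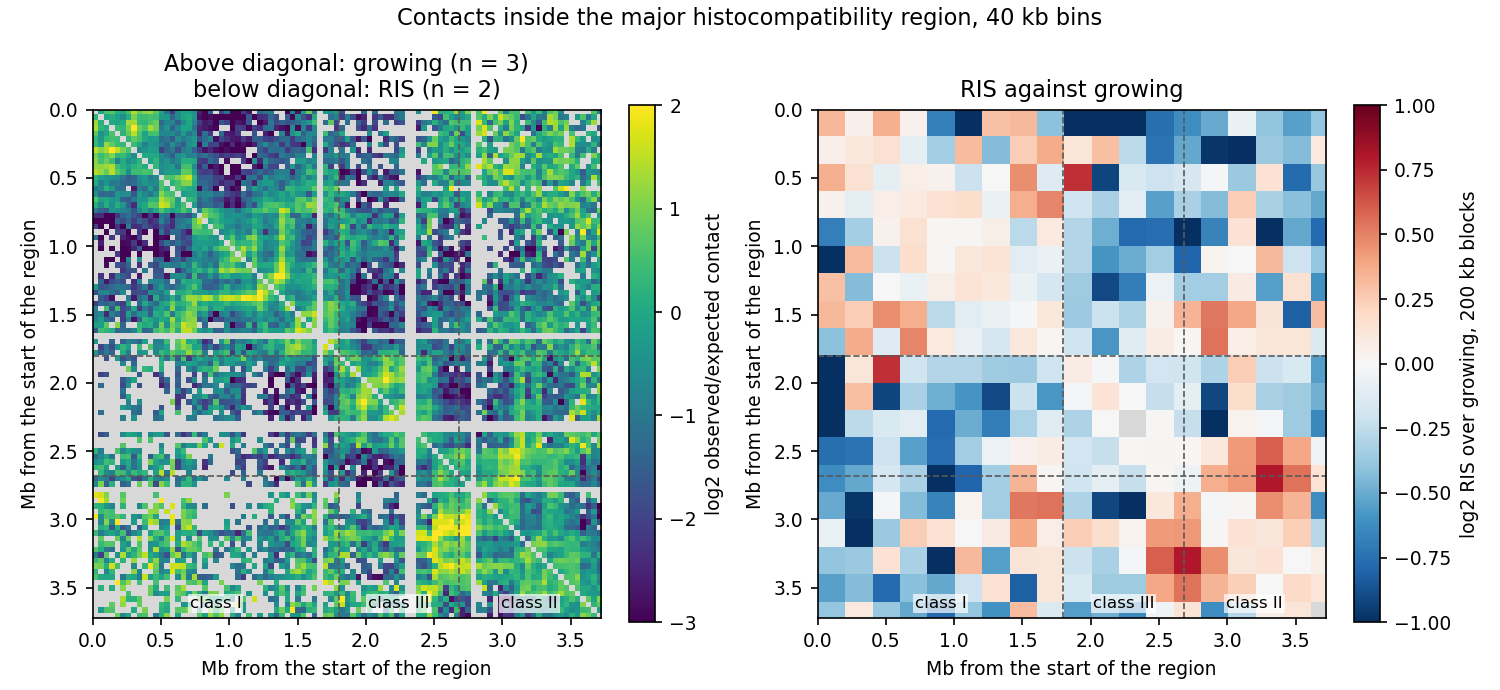
Left, log2 observed over expected contact of every pair of 40 kb bins, growing mean (n = 3) above and RIS mean (n = 2) below the diagonal. Right, log2 of RIS over growing in blocks of 200 kb. Axes give Mb from the start of the region, dashed lines mark class III, and grey marks masked bins, single bins or pairs without contacts. Red blocks gather where class II meets the end of class III, and blue blocks fill most of class I with class III.

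Single pairs of 40 kb bins were then tested across the genome. Of 1959041 pairs up to 2 Mb apart, 1496 lay inside the region, with a median of 8.4 recovered contacts per library. With limma on log2 balanced values, 0 of these were called at an adjusted p below 0.05, against backgrounds of 0.00817% higher and 0.031% lower. An unadjusted p below 0.05 was found for 163 of the 1496, against 199930 of all 1959041 pairs. In simulated data with 200 of 20000 pairs changed 2-fold, the same test found 0 of the 200. With limma-voom on recovered contacts 36 of the 1496 were called higher in RIS cells and 0 lower, against backgrounds of 0.853% and 0.398%. By voom 228 of the 1496 had an unadjusted p below 0.05 in either direction, against 261724 of all 1959041 pairs. The called pairs were 13 of 267 in class II, 11 of 632 in class I, 7 of 255 in class III with class II and 5 of 161 in class III. Class I with class III held 0 of 141 and class I with class II 0 of 40 (7 and 2 at an unadjusted p below 0.05). The call count fell to 2 without RIS replicate 2, to 5 without RIS replicate 1 and to 16 without growing replicate 1. The median log2 difference over the 1496 pairs was 0.21 by voom and 0.08 in balanced values, against 0.00 over all pairs in both, so unbalanced contacts of this thinly covered region were shifted upwards relative to balanced ones.

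The called pairs of class II included long contacts of the BTNL2 bin, long contacts between bins of HLA genes, and contacts of near bins, most of these around RPS18, TAPBP, DAXX and KIFC1. The bin of HLA-DRA, the alpha chain of the HLA-DR dimer, met the bin of HLA-DOB and TAP2, 360 kb away, with 96, 119 and 113 contacts in growing and 103 and 158 in RIS libraries. Per 100000000 contacts these were 62.2, 67.8 and 62.5 against 93.7 and 105, which do not overlap. The log2 difference was 0.66 (SE 0.14, limma-voom adjusted p = 0.00238), and 0.62 in balanced values, where it was not called. The bin of BTNL2, a butyrophilin-like regulator of T cells, met that of HLA-DPA1 and HLA-DPB1, 680 kb away, with 21, 14 and 16 contacts in growing and 22 and 37 in RIS libraries, a log2 difference of 1.31 (SE 0.28, limma-voom adjusted p = 0.00422). The largest of the 10 pairs with the lowest p joined a bin at the end of class III, chr6:32280001-32320000, to the HLA-DPA1 bin 720 kb away. It had 13, 11 and 11 contacts in growing and 24 and 27 in RIS libraries, a log2 difference of 1.61 (SE 0.31, limma-voom adjusted p = 0.00104).

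Neighbouring bins gave the lowest p. The pair that joins the bin of HLA-DOB and the end of TAP2 with that of PSMB8, PSMB9, TAP1 and the start of TAP2, across the border at 32.8 Mb, had 195, 246 and 184 contacts in growing and 229 and 266 in RIS libraries. TAP1 and TAP2 form the peptide pump that feeds class I molecules, and PSMB8 and PSMB9 are subunits of the immunoproteasome. Per 100000000 contacts the pair stood at 126, 140 and 102 against 208 and 177, with a log2 difference of 0.65 (SE 0.11, limma-voom adjusted p = 8.14e-05). At the end of class II, both bins that KIFC1, a mitotic kinesin, overlaps met with 95, 94 and 122 contacts in growing and 137 and 145 in RIS libraries (log2 difference 0.86, SE 0.14, limma-voom adjusted p = 4.62e-05). TAPBP, which loads peptides onto class I molecules, spans the edge between 2 bins. The first also holds part of RPS18, and the second holds DAXX, a histone chaperone. These bins met with 104, 125 and 146 contacts in growing and 114 and 182 in RIS libraries, a log2 difference of 0.65. In class I, HLA-F met HLA-G with 76, 100 and 94 contacts in growing and 95 and 136 in RIS libraries (log2 difference 0.78, SE 0.14, limma-voom adjusted p = 0.000564). The remaining 3 of these 10 pairs were HLA-F with a bin 120 kb away and 2 pairs of neighbouring bins at CLIC1 in class III, at 0.72, 0.54 and 0.51. In balanced values the 10 differed by 0.11 to 1.53, all in the same direction, with limma adjusted p of 0.295 to 0.838. The smallest were the 2 CLIC1 pairs, at 0.16 and 0.11, and the pair of TAPBP and DAXX, at 0.23. The KIFC1 pair stood at 0.49 and that across the border at 32.8 Mb at 0.45. The 2 HLA-F pairs stood at 0.61 and 0.66, and those of BTNL2 and the class III end at 1.16 and 1.53. Balanced values come from the same contacts that picked these pairs, so the shared direction is not a separate check. Of the 10, 8 were no longer called by voom without RIS replicate 2 and 6 without RIS replicate 1.

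Contact across bin edges in class II was higher in RIS cells, and contact across the edge between class I and class III was lower. The insulation score is the log2 contact across a bin edge within 520 kb on either side, so a higher score means more contact across. Of 89 bins, 41 were called higher in RIS cells and 4 lower by limma at an adjusted p below 0.05, against 31% and 25.2% of all bins. In class II 21 of 25 bins rose and 0 fell, and 25 of 25 differences were above 0, against 38535 of all 68170 bins. An unadjusted p below 0.05 was found for 22 of these 25, against 42020 of all 68170 bins. In class I 18 of 44 rose and 2 fell, and in class III 2 of 20 rose and 2 fell. Median differences were 0.23 in class II, 0.08 in class I and -0.04 in class III, against 0.02 over all bins. Neighbouring bins share contacts, so these counts are not of independent bins. Without balancing there were 63 higher and 0 lower bins, and with a 1000 kb window 24 and 8. The count of lower bins was 9 without growing replicate 3, 7 without RIS replicate 1 and 2 without RIS replicate 2.

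The strongest class II values lay over the DQ and TAP genes. Coverage there was low in growing libraries, at 0.38, 0.19 and 0.44 of the median bin for HLA-DQA1, HLA-DQB1 and TAP1. The score takes in 520 kb on either side, so it does not place a difference at a single gene. The bin of HLA-DQA1, a chain of the HLA-DQ dimer, scored 0.49, 0.47 and 0.43 in growing and 0.88 and 0.82 in RIS libraries, a difference of 0.39 (SE 0.03, limma adjusted p = 7.93e-05). Both RIS scores lay far above the growing ones. HLA-DQB1 scored 0.63, 0.60 and 0.64 against 0.96 and 0.98, a difference of 0.35. The shared bin of TAP1 and PSMB9 went from -0.31, -0.28 and -0.32 to 0.12 and 0.04, a difference of 0.38 (SE 0.03, limma adjusted p = 8.01e-05), so the sign of the score turned. HLA-DRA scored 0.44, 0.39 and 0.40 against 0.74 and 0.62, a difference of 0.27. BRD2, a bromodomain reader of acetylated histones, scored 0.08, 0.09 and 0.06 against 0.31 and 0.28, a difference of 0.21. Towards the class II end the differences were smaller. HLA-DPA1 differed by 0.12, TAPBP with DAXX by 0.15, and COL11A2 with RXRB by 0.06, which was not called. All 12 measured bins of the 13 class II HLA genes were called higher.

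In class I the called bins included those of HLA-G and of TRIM genes, ubiquitin ligases of antiviral defence. Of 4 bins with TRIM genes 3 rose. HLA-F, HLA-E and HLA-C differed by -0.04, 0.03 and -0.02 and were not called, and DDR1, a collagen receptor, differed by 0.13. The 4 bins that fell were that of MICB, which encodes a ligand of the NKG2D receptor, a bin at 31.16 Mb, that of DDX39B and NFKBIL1 at the edge of class III, and that of BAG6 and CSNK2B. TNF, HSPA1A, C4A, TNXB and NOTCH4 in class III differed by -0.06, -0.06, -0.01, -0.05 and -0.06, none of them called.

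**Figure D3:**
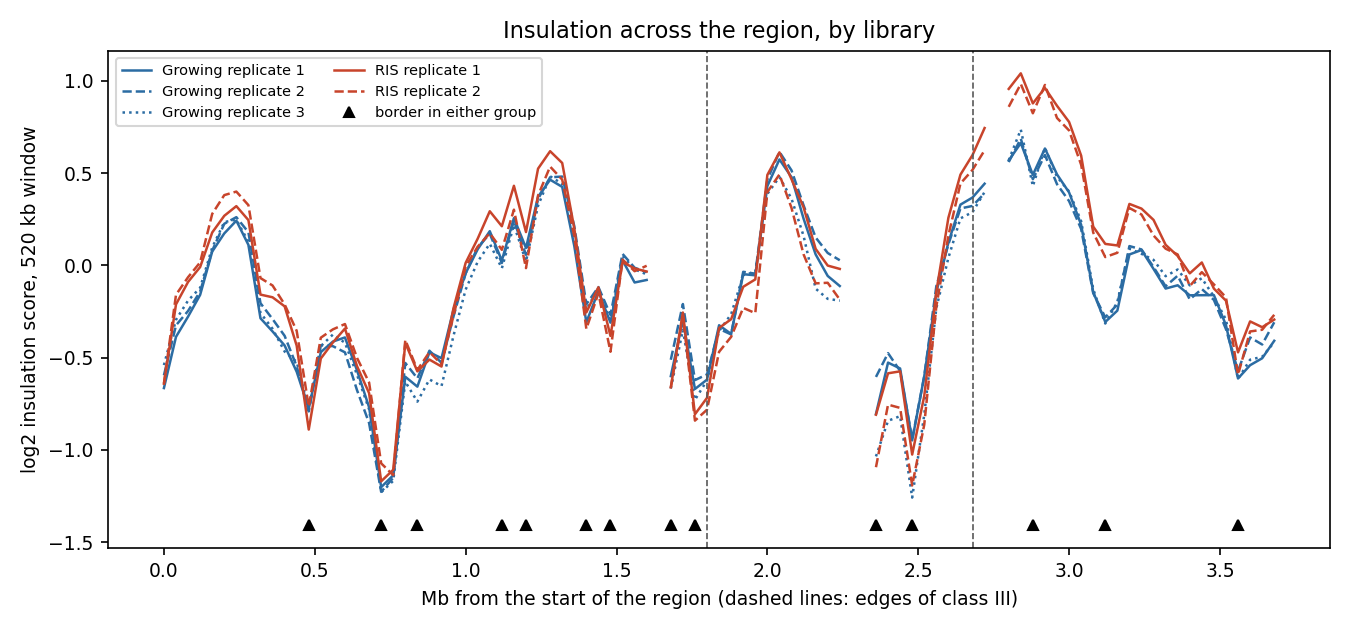
Log2 insulation score with a 520 kb window (y axis) along the region in Mb from its start (x axis), 1 line per library, blue for growing and red for RIS, with triangles at the 14 borders. The lines run together through class III and part through most of class II, where the RIS lines lie higher.

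Borders were called where the score dipped by at least 0.1. Each group's mean matrix gave 13 borders, or 14 distinct ones in all, 12 of which were shared within 1 bin. The border at 30.52 Mb was found in the RIS mean alone and that at 30.8 Mb in the growing mean alone. By library, the first was found in growing replicate 3 and both RIS libraries, and the second in the 3 growing libraries. Single libraries gave 12 to 14. At the borders, 4 of 14 scores rose and 2 fell, which is no more than the 31% and 25.2% of all bins. The border at 32.56 Mb, at HLA-DQA1, and that at 32.8 Mb, at TAP1, rose by the values given above for those bins, and their depth below the surroundings went from 0.160 to 0.118 and from 0.386 to 0.241. The deep border at 30.4 Mb, between the TRIM genes and HLA-E, went from -1.22 ± 0.02 (SD, n = 3) to -1.12 ± 0.07 (SD, n = 2). The fallen borders were those at 31.16 Mb (-0.13) and 31.44 Mb (-0.15). Of the part edges, that between class I and class III fell by 0.14 (SE 0.03, limma adjusted p = 0.00527) from -0.62, -0.59 and -0.62 to -0.72 and -0.78. That between class III and class II rose by 0.23 (SE 0.04, limma adjusted p = 0.000836) from 0.37, 0.32 and 0.29 to 0.60 and 0.52. The deep borders at 32.16 Mb, by NOTCH4, and 33.24 Mb differed by -0.06 and 0.07 and were not called.

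Focal contacts are pairs that stand above the ring of their neighbours, and most of those described overlapped between the groups. Peaks were chosen on the mean of both groups, and the 8 highest over their ring are described. The first, between chr6:30880001-30920000 and chr6:31040001-31080000 in class I, stood 2.29, 2.33 and 2.51 above its ring on the log2 scale in growing and 2.22 and 2.51 in RIS libraries, a difference of -0.01. The next 2, also in class I, differed by 0.07 and 0.02, with overlap. The peak whose anchors hold the DHX16 and right anchor sequences printed above stood at 1.5005, 1.71 and 1.45 against 1.53 and 1.67, a difference of 0.04. In class III 2 of the 8 were higher in both RIS libraries without overlap, against 25.3% of sites across the genome. One of them, 520 kb wide, stood at 1.64, 1.16 and 0.42 in growing and 2.15 and 2.15 in RIS libraries. Its difference of 1.08, or 2.11-fold, was the largest of the 8, and it rests on 7, 6 and 3 contacts in growing and 8 and 8 in RIS libraries. The other differed by 0.19 (two-sided exact permutation p = 0.2 for each). The remaining 2 differed by 0.04 and 0.23. The difference of 5 of the 8 peaks changed sign when 1 of the libraries was left out.

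Beyond the region, contacts with the rest of chromosome 6 were less frequent in RIS cells for each of the 3 parts. As a share of the balanced contacts of class I, those with chromosome 6 beyond 2 Mb were 14.8%, 15.3% and 15.9% in growing and 13.045% and 11.1% in RIS libraries. For class III they were 9.66%, 10.4% and 11.7% against 7.78% and 6.49%, and for class II 13.2%, 14.1% and 14.8% against 10.3% and 9.30%. Each of the 3 had the smallest p that the design allows (two-sided exact permutation p = 0.1), and how often other stretches of the genome reach it was not computed. Shares with other chromosomes were 10.6% and 11.6% on average for class I, 9.94% and 10.2% for class III, and 11.8% and 13.1% for class II, in growing and RIS libraries.

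As log2 observed over expected contact of whole blocks, the loss was larger towards B than towards A compartment bins. A and B are the open and closed compartments of the nucleus, and bins were put in a set only if their compartment score had the same sign in all 5 libraries, which gave 1991 A bins and 1665 B bins on chromosome 6. The whole region with B bins beyond 2 Mb stood at -1.15, -1.05 and -0.95 in growing and -2.10 and -2.11 in RIS libraries on the log2 observed over expected scale. It fell to 0.481 of the growing level (-1.05 on the log2 scale), on 8964, 10945 and 11878 contacts in growing and 4023 and 4921 in RIS libraries. With A bins it stood at -0.15, -0.17 and -0.12 against -0.41 and -0.54, a difference of -0.33. The difference of A minus B grew by 0.72. Within the few-duplicate libraries the B difference was -0.998 and within the many-duplicate pair -1.16. Each of these had the smallest p the design allows (two-sided exact permutation p = 0.1).

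The 3 parts all had lower block values. With B bins, class I went from -1.04 ± 0.09 (SD, n = 3) to -2.29 ± 0.03 (SD, n = 2), class III from -1.88 ± 0.11 to -2.79 ± 0.09, and class II from -0.63 ± 0.13 to -1.51 ± 0.03. Class II was nearest to B chromatin in both groups. With A bins the 3 parts differed by -0.27, -0.50 and -0.35 in the order class I, III and II. Over 200 kb pairs after loess normalization, those with A partners beyond 2 Mb had median differences of -0.000249, -0.30 and -0.58 in balanced values and 0.12, 0.01 and -0.28 by voom in the same order. Those with B partners had -0.85, -0.46 and -0.31 in balanced values and -0.56, -0.33 and -0.26 by voom. Over these pairs the B differences of the 3 parts were thus smaller but still below 0. The A differences of class I and class III changed in size or sign. The class II median lay farther below 0 with A than with B partners. The 200 kb fit kept only pairs above a minimum mean value. For the whole region these were 639 with A and 174 with B partners beyond 2 Mb. The block values rest on 175481 and 146542 pairs of 40 kb bins. Pairs and scaling thus both differ from the block values, and their separate effects were not tested.

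**Figure D4:**
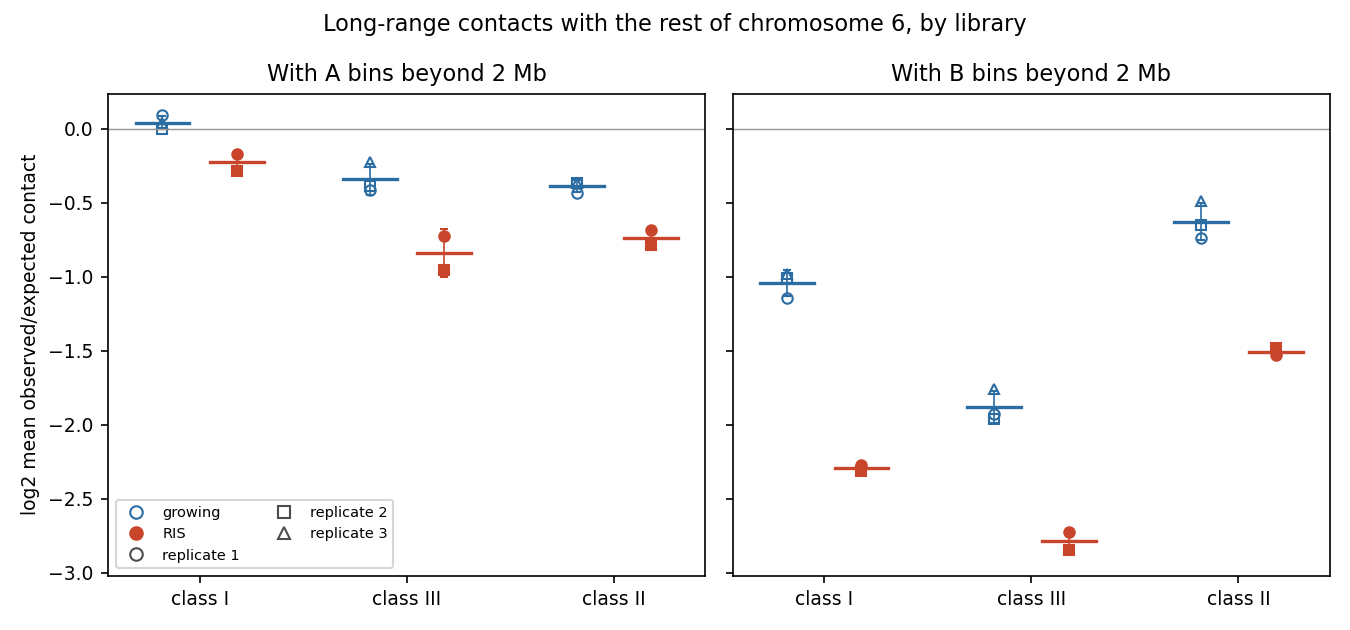
Log2 mean observed over expected contact (y axis) of class I, III and II (x axis) with A bins (left) and B bins (right) of chromosome 6 beyond 2 Mb, 1 point per library, with mean and SD. RIS libraries lie below the growing libraries in every column, by 0.27 to 0.50 with A bins and by 0.88 to 1.25 with B bins.

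Measured bin by bin with limma over the genome, contact with far B bins was called lower in 57 and higher in 0 of 89 bins, against 23% lower and 19% higher over all bins. An unadjusted p below 0.05 in either direction was found for 66 of the 89, against 36865 of all 69416 bins. The measure of far B contact per bin was added after the long-range values above had been seen. The median difference was -1.09, against -0.10 over all bins. Many bins of the genome are B bins themselves, so the same was done over bins of A sign alone. There 44 of the 76 such bins of the region were lower, against 23.7%. Class I held 31 lower bins of 44, class III 8 of 20 and class II 18 of 25. With the replicate number as a block in the fit, far B contact was called lower in 0 bins of the region. The 12 called values of named genes lost their call there. With A bins 23 of 89 were lower and 0 higher (37 had an unadjusted p below 0.05, as had 26560 of all 69609), against 21.6% and 1%. That share is near the background, with a median of -0.31 against -0.24, and the count was 14, 12 and 11 without growing replicate 2, growing replicate 3 and RIS replicate 2.

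The HLA-F bin had 0.26, 0.47 and 0.38 with B bins in growing and -0.81 and -0.68 in RIS libraries, a difference of -1.12 (SE 0.11, limma adjusted p = 0.00733). Growing cells thus held more B contact there than expected and RIS cells less. The HLA-DQA1 bin showed the same crossing, at 0.19, 0.44 and 0.36 against -0.41 and -0.53, a difference of -0.80 (SE 0.11, limma adjusted p = 0.00890). HLA-DRA went from 0.13, 0.02 and 0.11 to -0.36 and -0.56, a difference of -0.55. HLA-C differed by -1.53, MICA by -1.15, BRD2 by -0.95, HLA-DPA1 by -1.33 and COL11A2 with RXRB by -1.56, each called. NOTCH4, a receptor of blood vessel cells, went from -0.86, -1.03 and -0.31 to -3.05 and -2.51, a difference of -2.04 (SE 0.27, limma adjusted p = 0.00822). HLA-DQB1 differed by -0.55 and was not called. HLA-E, IER3, TNF, HSPA1A, C4A, TNXB, TAP1 and TAPBP stood at -1.65 to -4.17 in growing cells, with differences from -0.41 to -2.37, and none passed the test.

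The compartment score moved in opposite directions inside the region. It is the first component of the distance-corrected map in 120 kb bins, divided by its SD on the chromosome, with positive values on the gene-dense side. Of 31 bins, 13 rose and 6 fell by limma at an adjusted p below 0.05, against 21.8% and 27.4% of all bins. The count of higher bins was 8 without RIS replicate 2, and that of lower bins 3 without RIS replicate 1. In RIS libraries all 31 were positive, and 26 were positive in all growing libraries. Bins negative in all growing and positive in all RIS libraries numbered 3, against 3.87% over the genome. These were the HLA-F bin, at -0.20, -0.19 and -0.15 against 0.53 and 0.55 (difference 0.72, limma adjusted p = 0.000734), the HLA-DRA bin, at -0.13, -0.06 and -0.08 against 0.20 and 0.30, and the bin of HLA-DQA2 and HLA-DQB2, at -0.30, -0.20 and -0.18 against 0.33 and 0.28. The last of these was chosen after its values were seen. Between them, the bin of HLA-DQA1, HLA-DQB1 and HLA-DRB1 went from 0.01, -0.27 and -0.16 to 0.26 and 0.34 (difference 0.44, limma adjusted p = 0.00723).

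Rises covered both HLA ends. In class I they took in HLA-F, HLA-G and the TRIM genes, and they returned at HLA-C (from 0.53 to 0.78). In class II they took in HLA-DPA1 (from 0.30 to 0.63), while the bins of TAP1 and BRD2 differed by 0.12 and 0.02 and were not called. Falls covered stretches with high scores in growing cells. The bin of IER3, an early response gene, and the housekeeping genes TUBB and FLOT1 went from 1.04, 1.14 and 1.18 to 0.78 and 0.82 (difference -0.32, limma adjusted p = 0.00509). HSPA1A, the stress-induced heat shock protein, lies in a bin that went from 1.01, 1.02 and 1.11 to 0.73 in both RIS libraries (difference -0.31, limma adjusted p = 0.00418). NOTCH4 at the class III end rose from 0.41 to 0.67.

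**Figure D5:**
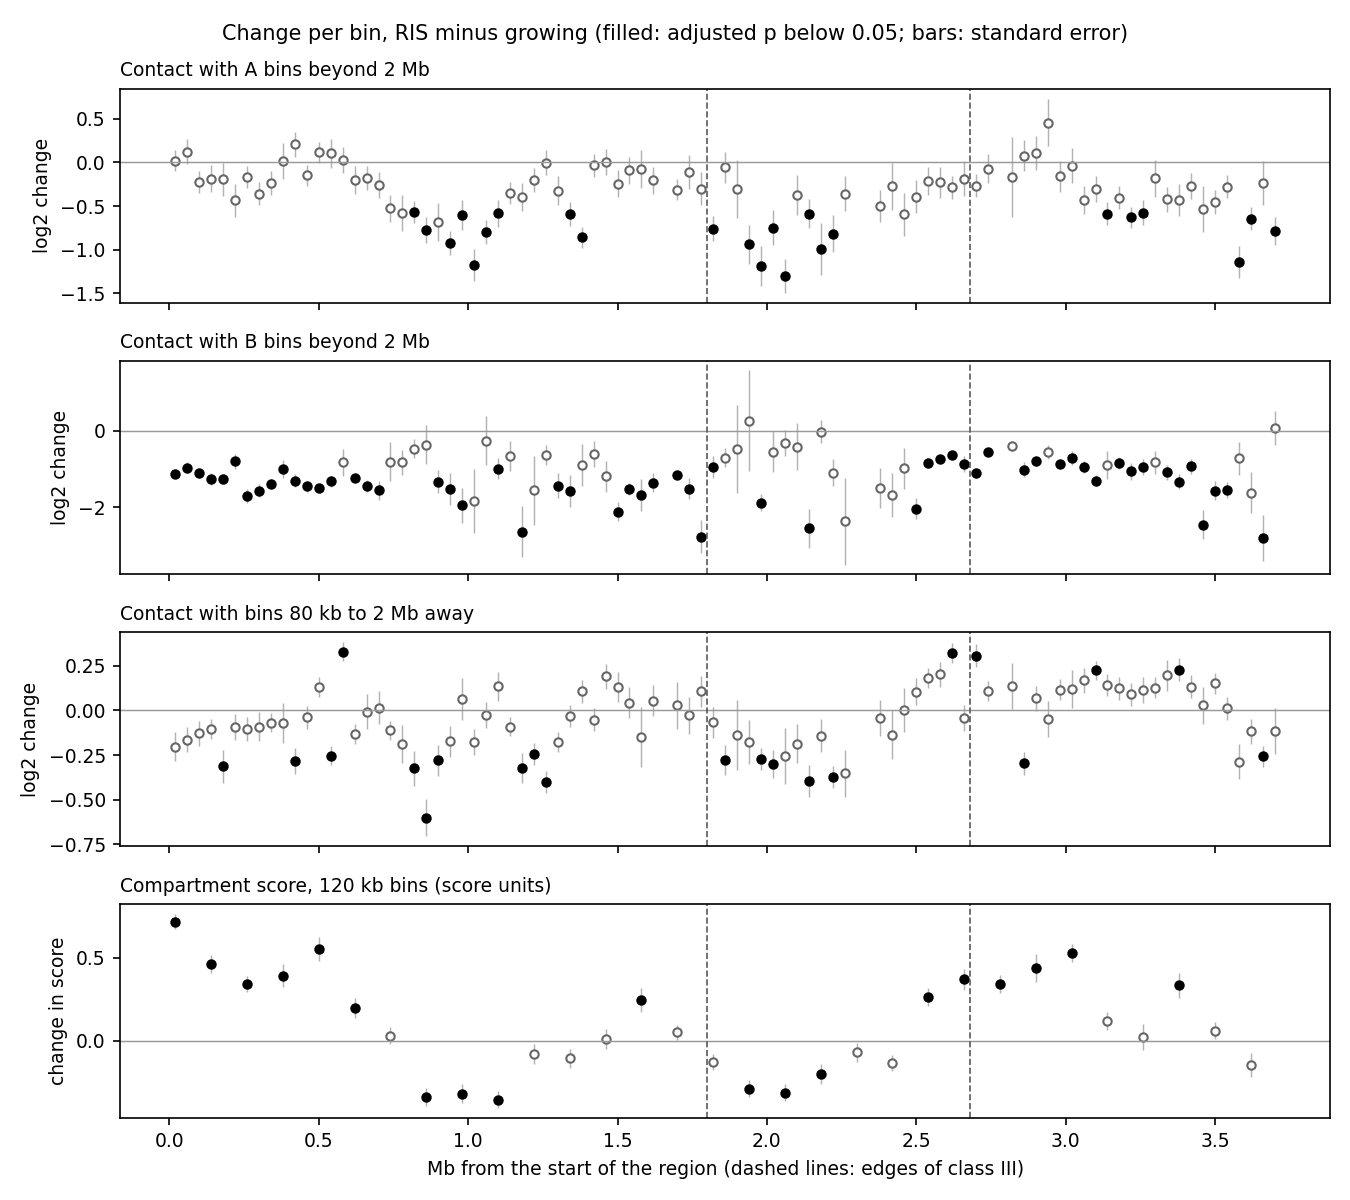
Change per bin, RIS minus growing, along the region in Mb from its start (x axis), for contact with A bins and B bins beyond 2 Mb and contact from 80 kb to 2 Mb (log2), and for the compartment score (score units). Filled points have an adjusted p below 0.05 and bars give the standard error. The difference in B contact is below 0 in all but 2 of 89 bins, against 39468 below 0 of all 69416 bins. The compartment score rises at both HLA ends and falls in stretches between them.

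The lists of genes are read against the shares over all bins, of which 23% were lower with B bins, 21.6% with A bins and 13.8% in local contact, while the compartment score was higher in 21.8% and lower in 27.4%. The 5 measured bins of the 6 class I HLA genes had a median difference of -1.10 in far B contact, with 4 lower, and 4 of 6 compartment bins were higher. The 12 bins of class II HLA genes had a median of -0.89, with 9 lower, and 4 of 6 compartment bins were higher. The 2 bins of antigen processing genes had no called far B difference at a median of -1.25, and both were lower with A bins (median -0.62). In the 6 bins of the class I housekeeping stretch, 3 were lower with B bins, 3 with A bins and 4 in local contact, and 2 of 3 compartment bins fell. The 3 bins of complement genes had no called difference in insulation or far B contact, while 2 were lower with A bins and 1 in local contact, and 1 of 2 compartment bins fell. The 3 TNF stretch bins had 1 lower in each of far A, far B and local contact, and the 4 bins of skin genes near HLA-C had 1 lower in far B and in local contact. The 8 bins of other class III genes, of which BTNL2 lies in the first bin of class II, had 2 lower in far B and 3 in far A contact. Counts of 1 to 3 bins in the TNF, skin and other class III lists do not stand clear of the shares over all bins. The 2 bins of MIC genes, whose products mark stressed cells, were both lower with B bins, the 4 TRIM bins were all lower, and of the 5 bins at the class II end 4 were lower. The bin of the heat shock genes had no call in far B contact.

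Contact of a bin with its surroundings from 80 kb to 2 Mb was higher in 5 and lower in 16 of 89 bins, against 10.9% and 13.8%. Class II held 3 of the higher bins, and class I and class III held 9 and 5 of the lower ones. The balance depended on the distance limit, with 20 higher and 10 lower from 80 kb to 1 Mb, and 0 higher and 27 lower up to 4 Mb. Without balancing there were 10 higher and 3 lower. The higher count was 3 without growing replicate 1 or RIS replicate 1. The lower count was 9, 8 and 6 without growing replicate 1, growing replicate 2 and RIS replicate 2. The share of contacts with other chromosomes was higher in 20 and lower in 3 bins, against 65.8% and 1.35% of all bins. The higher count was 10 without growing replicate 3 and 6 without RIS replicate 1, and the lower count 7 without RIS replicate 1. The median difference was 0.13 on the log2 scale, against 0.33 over all bins. After centring each library on its median bin, a scaling chosen after seeing the data, 0 were higher and 41 lower, against 19.2% lower. The direction of this measure therefore depends on the scaling. Before centring, the region's median share rose in RIS cells, but by less than the median over all bins.

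Differences of the whole region with named partners on the same arm were all below 0. The zinc finger stretch and the region stood at -0.71, -0.72 and -0.62 in growing and -1.35 and -1.22 in RIS libraries. The histone genes were lower as well, the part nearer the region by 0.82 and the farther part by 0.54. Each of these 3 had a two-sided exact permutation p = 0.1, the smallest possible, with no background computed for comparable stretches. For class III with the nearer histone genes the values rest on 20, 38 and 58 contacts in growing and 9 and 9 in RIS libraries. The olfactory receptor genes beside HLA-F differed by -0.44 (two-sided exact permutation p = 0.2). CDKN1A, the p21 cell cycle inhibitor, lies on the other side, and the whole region differed by -0.40 there. The value was farthest from 0 in class II, with a difference of -1.54 on 26, 18 and 27 contacts in growing and 7 and 13 in RIS libraries (two-sided exact permutation p = 0.1), while class I (-0.09) and class III (-0.19) overlapped between the groups. The value of the whole region was -0.07 within the few-duplicate libraries, -0.81 within the many-duplicate pair, -0.15 without RIS replicate 2 and -0.65 without RIS replicate 1.

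Pairs of 200 kb bins between the region and the rest of chromosome 6 numbered 1209. By limma on balanced values 2 were higher and 17 lower, against 1.21% and 0.852% of all pairs, with a median difference of -0.31. By voom on recovered contacts, added after the data were seen, 17 were higher and 28 lower, against 9.72% and 5.87%, both below the background. Of the 98 pairs within 2 Mb, 17 of the 43 with class I were lower by voom and 2 in balanced values. The shares above cover pairs at all distances, and no share over all pairs within 2 Mb was computed for comparison. Beyond 2 Mb, class I with A partners had 15 pairs higher and 1 lower of 437 by voom, and 1 and 2 in balanced values. The higher share by voom was 3.43%, below the 9.72% over all pairs. In balanced values the lower count was 0 without any 1 of the growing libraries and 7 without RIS replicate 1, and by voom it was 5 and 6 without RIS replicates 1 and 2. The higher count was 0 in balanced values without any 1 library, and by voom it was 8, 11, 3 and 6 without growing replicate 2, growing replicate 3, RIS replicate 1 and RIS replicate 2.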

How the data were processed

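Per the labels and the methods of the study, Hi-C was done on growing and RIS IMR90 cells. HiC-Pro and hg19 were used by the authors for alignment, and after artefacts and duplicates had been filtered out, the contacts of every library were placed in 40 kb bins and balanced by ICE. The deposited signal is the balanced contact per bin pair, listed in both orientations, of which 1 was kept, and each library sums to 200000000 over both. The 4 capture Hi-C libraries were not used here.

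A single factor per bin returned whole contacts for 100% of the deposited values of each library (to within 0.05 contacts, or 0.5% of larger counts), and the recovered counts gave the depth. Intervals for counting error were not computed. Expected contact is the mean at the same distance. For blocks and peaks, exact permutation tests over libraries were used, two-sided. Bin pairs were tested with limma on log2(scaled value + 0.5) after loess normalization (span 0.3, 4 iterations) with a minimum mean of 5 at 40 kb and 10 at 200 kb, and with limma-voom on recovered contacts with the same normalization. Scores per bin were tested with limma. Adjusted p-values are by Benjamini-Hochberg over all pairs or bins of the genome, at 5%. Genome windows of equal size and spacing gave the background of the blocks.

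In simulated data with 200 of 20000 pairs changed 2-fold, limma on balanced values found 0 and voom 65, or 34 with added dispersion. Per bin, with a shift of 0.3, limma found 150 of 200. Borders and recovered contacts were checked on simulated matrices.

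Named genes are 24 genes of the 12 lists (87 genes), of which 1 is not reported here, named pairs the 10 with the lowest voom p, named borders all of the region, and named peaks the 8 highest over their ring. The members, genes and lists were chosen with earlier results of these data known. Genes were placed by a GRCh37 annotation. Alternatives were the expected value, balancing, median, coverage, window, distance, pseudocount, minimum value, scaling, replicate block, duplicate class and each library left out. Computations ran in R 4.3.3 (limma 3.58.1) and in Python 3.11.15 (scipy 1.17.1, numpy 2.4.6, pandas 2.3.3).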

Additional observations from a re-analysis of the deposited data

How the results depend on the processing

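Without balancing, the differences between RIS and growing cells turned to 0.23 for class III, 0.21 for the whole region, 0.067 for the region minus the stretch before it and 0.0084 for class I with CDKN1A, and the bins of HSPA1A and C4A turned to 0.17 and 0.20 in insulation. Insulation then gave 63 higher and 0 lower bins, and local contact 10 and 3. The class III with class II difference became -0.047 as a median over pairs. No finite median could be formed for class I with class III or class I with class II. Class II, class I, class I with class III, class I with class II and the A and B blocks of the whole region kept their direction under every alternative that gave a block value. Over 200 kb pairs by voom, the median difference of the whole region with A partners beyond 2 Mb was 0.03.

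Leaving out each library in turn gave -0.0079 to 0.20 for class III with class II, -0.13 to 0.0070 for the whole region, -0.37 to 0.19 for class I with CDKN1A and -0.56 to 0.18 for class III with CDKN1A. Within the few-duplicate libraries these CDKN1A values were 0.36 and 0.35. The focal contacts at chr6:30880001-30920000, 30160001-30200000, 30600001-30640000, 32200001-32240000 and 31800001-31840000 (first anchor) ranged over -0.15 to 0.14, -0.030 to 0.067, -0.029 to 0.12, -0.16 to 0.25 and -0.36 to 0.82, and a ring of 2 to 4 bins gave 0.0089, -0.017 and -0.014 for the first 3. Calls without 1 library ranged from 2 to 35 for 40 kb pairs by voom. For 200 kb pairs they were 0 higher and 0 to 24 lower, and by voom 3 to 15 higher and 5 to 28 lower. Insulation gave 2 to 9 lower, local contact 3 to 7 higher and 6 to 18 lower, and the inter-chromosomal share 6 to 20 higher and 2 to 7 lower. The compartment score gave 8 to 13 higher and 3 to 7 lower, far A contact 11 to 19 lower, and far B contact 0 to 1 higher. A lone library of a group was taken to vary like the other group.

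For 40 kb pairs in balanced values, a minimum mean of 2 gave 4 higher, scaling without loess 1 lower and a pseudocount of 0.1 gave 3 lower. For 200 kb pairs, higher calls were 1 without loess, 0 with a pseudocount of 0.1, 6 with a pseudocount of 2, 0 with a minimum of 5 and 4 beyond 2 Mb, and lower calls were 27, 11, 38 and 0 under the first 4. By voom, higher calls were 8 without loess and 6 with a minimum of 20. A 1000 kb insulation window gave 24 higher and 8 lower bins. Local contact gave 20 higher and 10 lower up to 1 Mb, and 0 and 27 up to 4 Mb. Centring the inter-chromosomal share gave 0 higher and 41 lower. The cause of these changes was not tested. Of the called values of named genes, up to 4 of 11 in insulation, up to 4 of 10 in compartment score and up to 2 of 12 in far B contact lost their call when a library was left out. Other pseudocounts were not run for voom, nor the compartment score without balancing.

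The labels give replicate numbers, of which 2 are shared, and do not state whether these pair the samples. Deviations of same-numbered libraries correlated at -0.25 to 0.17 over bins. The 2 RIS libraries deviate from their mean as mirror images, so each growing library correlates with both equally and with opposite sign. The check therefore cannot decide whether the samples are paired. With the replicate block, far B calls by limma went from 57 to 0 lower, including 12 of named genes (60 of the 89 bins had an unadjusted p below 0.05, and 0 of all 69416 bins were called), far A to 10 lower, 200 kb pairs to 0 higher and 0 lower, by voom to 7 higher, insulation to 12 lower, local contact to 3 higher and the inter-chromosomal share to 13 higher, and class I with CDKN1A turned to 0.083.

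Depth limits what can be seen. Bins of the region hold under the median number of contacts, single pairs rest on few contacts, and 3 against 2 libraries allow no exact p below 0.1.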
